A study of Mus musculus with 2 samples.

Results

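The 8 genes described here belong to the pathway by which fibroblast growth factors (FGFs) signal through the kinase ERK. They are *Fgf4*, *Fgfr1*, *Fgfr2*, *Spry2*, *Spry4*, *Dusp6*, *Etv4* and *Etv5*, chosen by symbol, and they were 8 of the 54146 gene rows in the files. They were measured by single-cell RNA-seq in droplets (inDrop) in 2 libraries of mouse embryonic stem (ES) cells derived from the inner cell mass. One library was labelled wild-type and untreated, and the other was labelled *Lin28a* knockout, with no other treatment named. *Lin28a* codes for an RNA-binding protein of pluripotent cells. Both cultures grew for 2 days with MEF feeder cells, which are embryonic fibroblasts, in LIF/2i medium. This medium holds a MEK inhibitor and a GSK3 inhibitor, which both libraries share, and ERK activity was not measured here. Each library came from 1 clone of transfected cells, a2.1 for the wild-type and a3.5 for the CRISPR/CAS9 knockout, which the study's supplement sets beside the parental ES line E14. With 1 library of each kind there was no replicate and no test. The intervals given are exact 95% intervals that cover counting error only, and a difference between the libraries cannot be told apart from a difference between clones, cultures or runs.

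Among the FGF signals of the early embryo, FGF4 is the ligand that pluripotent cells secrete. Receptor tyrosine kinases of the FGFR family bind it and pass the signal through adaptors, RAS, RAF and MEK to ERK. ERK then induces the transcription factors ETV4 and ETV5 and, as negative feedback, the Sprouty proteins SPRY2 and SPRY4 and the phosphatase DUSP6, which removes the activating phosphates from ERK. In the inner cell mass this signalling favours primitive endoderm over epiblast, and in ES cells it favours exit from the naive state, which is why naive media block MEK.

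A barcode was kept as a cell with at least 500 UMIs, where a UMI is 1 counted RNA molecule, and with at most 20% of them mitochondrial. Cells with at least 0.3% of their UMIs on *Col1a1*, *Col1a2* and *Col3a1* were set apart as fibroblasts. This left 1808 wild-type and 1599 knockout ES cells with a median of 6112 and 5072 UMIs, and 48 and 23 fibroblasts with a median of 8132 and 2295 UMIs. All 8 ES markers were found in the ES cells of both libraries, summing to 3999 and 4161 CPM, which are the UMIs of a gene for every 1000000 UMIs of the summed cells. In the fibroblasts these markers summed to 262 CPM for the wild-type library and 529.9 CPM for the knockout one, and 12 fibroblast markers summed to 30582 and 28144 CPM against 688 and 700.2 in the ES cells. *Lin28a* itself had 111 CPM (104 to 117) in wild-type and 36.9 CPM (33 to 41.0) in knockout ES cells. The guide RNA was aimed at the second exon and the UMIs are tags near the 3′ end, so this level was not a check of the edit. The files name barcodes by number alone, so barcodes shared between libraries could not be counted.

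For 5 of the 8 genes a promoter window was found among the 32851 windows of the RefSeq table (build GRCm38.p6), and the 250 bases before the start of the RefSeq entry were read. For *Fgf4* this start lies inside the gene span of the other annotation, GENCODE, that is given further on. Those of 4 genes are shown, since *Spry2*, *Dusp6* and *Etv5* were all lower in ES cells with the most ribosomal protein UMIs, as described further on, and *Fgf4* was not. Capitals mark 3 motifs, the ETS motif CGGAAG, the GC box GGGCGG and the CCAAT box CCAAT, on either strand. None of these matches overlapped another. For *Etv5* the stretch stops at the first exon of the annotation.
Spry2, chr14:105896820-105897069, minus strand: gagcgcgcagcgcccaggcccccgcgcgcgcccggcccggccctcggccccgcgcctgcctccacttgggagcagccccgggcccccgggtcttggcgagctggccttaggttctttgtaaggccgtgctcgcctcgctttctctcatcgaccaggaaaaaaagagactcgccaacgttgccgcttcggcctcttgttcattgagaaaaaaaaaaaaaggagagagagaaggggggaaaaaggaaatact
Dusp6, chr10:99262981-99263230, plus strand: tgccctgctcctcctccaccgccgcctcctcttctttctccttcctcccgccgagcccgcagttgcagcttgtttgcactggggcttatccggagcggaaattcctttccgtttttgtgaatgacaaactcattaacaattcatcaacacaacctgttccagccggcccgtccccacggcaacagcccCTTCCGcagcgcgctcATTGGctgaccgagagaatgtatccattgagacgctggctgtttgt
Etv5, chr16:22439720-22439820, minus strand: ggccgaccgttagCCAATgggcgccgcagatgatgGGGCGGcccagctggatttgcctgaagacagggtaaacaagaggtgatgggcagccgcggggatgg
Fgf4, chr7:144861136-144861385, plus strand: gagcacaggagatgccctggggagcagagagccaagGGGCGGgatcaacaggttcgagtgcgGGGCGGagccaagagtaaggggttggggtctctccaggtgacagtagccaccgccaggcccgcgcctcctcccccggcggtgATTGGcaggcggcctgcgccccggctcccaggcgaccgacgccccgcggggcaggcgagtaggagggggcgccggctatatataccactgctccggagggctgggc

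The ETS motif, the letters that factors such as ETV4 and ETV5 recognise, was in the *Dusp6* window and in 13.6% of all windows of 250 bases. The GC box was in the *Fgf4* window, 2 times, and in 32.7% of all windows, and the CCAAT box was in the *Dusp6* and *Fgf4* windows and in 33.8% of all. The *Etv5* stretch of 101 bases held 1 GC box and 1 CCAAT box, found in 10.6% and 13.7% of all windows cut to that length. *Etv5* had another window in the table, chr16:22438369-22438618, whose 250 bases held 1 CCAAT box and none of the other motifs. The *Spry2* window held none of the 3 motifs, and the AP-1 motif TGANTCA and the CRE motif TGACGTCA, in 6.75% and 1.55% of all windows, were in none of these 4 stretches. GC content was 62.4% for *Spry2*, 56.4% for *Dusp6*, 64.4% for *Etv5* and 71.2% for *Fgf4*. A match is a description of letters and not a measured binding site.

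*Fgf4*, the ligand gene, lies on chromosome 7 from 144847367 to 144865243 (ENSMUSG00000050917.5, plus strand, GRCm38). It had 561 UMIs in wild-type ES cells, a level of 50.1 CPM (46.0 to 54.4), and 751 UMIs in knockout ES cells, a level of 81.4 CPM (75.7 to 87.4). The knockout level was 1.63 times the wild-type level (1.46 to 1.82), a ratio above that of 92.7% of the 15104 genes with at least 50 UMIs over both libraries. At least 1 *Fgf4* UMI was found in 25.4% of wild-type ES cells (23.4% to 27.5%) and in 32.2% of knockout ES cells (29.9% to 34.6%). The knockout cells had the lower median depth, but 311 of them had 10000 or more UMIs, against 173 wild-type cells. Taken at 500 UMIs per cell the expected shares were 2.53% and 4.17%. Among wild-type ES cells 376 had 1 *Fgf4* UMI, 71 had 2 and 13 had 3 or more, up to 5 in a cell. Among knockout ES cells the numbers were 356, 107 and 52, up to 8 in a cell. These numbers were not taken at equal depth.

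No *Fgf4* UMI was found in fibroblasts, the cell type that should lack this gene. In the wild-type library 0 of 48 fibroblasts had one, which by a floor of 3 cells allows a share of cells with a UMI of up to 6.25%, and in the knockout library 0 of 23, which allows up to 13.0%. The exact binomial intervals are wider and reach 7.40% and 14.8%. Set against a floor of 3 UMIs over each library's fibroblasts, 6.95 and 26.1 CPM, the fibroblast level was at least 7.20-fold lower than that of ES cells in the wild-type library and at least 3.12-fold lower in the knockout library. The exact 95% intervals are wider and allow up to 0.171 and 0.395 of the ES cell level.

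*Fgfr1*, the FGF receptor gene with the most UMIs in these ES cells, lies on chromosome 8 from 25513654 to 25575718 (ENSMUSG00000031565.18, plus strand). It had 55.8 CPM (51.5 to 60.3; 625 UMIs) in wild-type and 70.5 CPM (65.1 to 76.1; 650 UMIs) in knockout ES cells, a ratio of 1.26 (1.13 to 1.41). Fibroblasts held far more of it, with 352 CPM (298 to 413; 152 UMIs) for the wild-type library and 321 CPM (226 to 443; 37 UMIs) for the knockout one. That was 6.31 times (5.25 to 7.55) and 4.56 times (3.18 to 6.36) the ES cell level of the same library. *Fgfr1* was the one of the 8 genes that was at least 2-fold higher in fibroblasts in both libraries, a call that 6.87% of the 6291 genes with at least 500 UMIs received. Because of this the few fibroblasts bore on its library ratio, which was 1.10 (0.993 to 1.22) when they were not kept apart. The antisense gene *Gm16159* overlaps *Fgfr1* and had 1 UMI in wild-type ES cells.

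*Fgfr2*, the second receptor gene and one that marks primitive endoderm and trophectoderm in the blastocyst, was at the edge of detection. The annotation places it on chromosome 7 from 130162451 to 133123350 (ENSMUSG00000030849.18, minus strand), a span that overlaps 69 other genes. It had 5 UMIs in 5 of 1808 wild-type ES cells, 0.446 CPM (0.145 to 1.04), and 5 UMIs in 5 of 1599 knockout ES cells, 0.542 CPM (0.176 to 1.26). The ratio of 1.21 had an interval from 0.280 to 5.28, so no difference between the libraries was detectable at this depth. In fibroblasts it had 4 UMIs in 3 cells of the wild-type library, 9.27 CPM (2.53 to 23.7), and none in the knockout library, where the floor was 26.1 CPM.

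*Spry2*, an inhibitor that acts upstream of RAF, lies on chromosome 14 from 105891947 to 105896819 (ENSMUSG00000022114.5, minus strand). It had 114 CPM (108 to 120.3; 1276 UMIs) in wild-type and 87.9 CPM (82.0 to 94.2; 811 UMIs) in knockout ES cells. The ratio was 0.77 (0.71 to 0.84), the lowest of the 7 genes with at least 50 UMIs, and it lay above that of 16.2% of all genes so measured. A UMI was present in 42.4% of the wild-type ES cells and 27.7% of the knockout ones, and the expected shares at 500 UMIs per cell were 5.37% and 3.26%. In fibroblasts *Spry2* had 127 CPM (96 to 166; 55 UMIs) in the wild-type library, close to the ES cell level with a ratio of 1.12 (0.838 to 1.47), and 60.8 CPM (24.4 to 125; 7 UMIs) in the knockout library.

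*Spry4*, its relative on chromosome 18 from 38586247 to 38601415 (ENSMUSG00000024427.6 in the files, minus strand), had 34.8 CPM (31.4 to 38.4; 390 UMIs) in wild-type and 32.1 CPM (28.5 to 36.0; 296 UMIs) in knockout ES cells. The ratio of 0.92 had an interval from 0.79 to 1.08 that includes 1. Fibroblasts of the wild-type library had 8 UMIs of it, 18.5 CPM (8.0 to 36.5), and those of the knockout library had none. There the floor of 3 UMIs, 26.1 CPM, was at least 1.23-fold lower than the ES cell level, but the wider exact interval allows up to 1.0 of it, so no difference beyond counting error was shown.

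*Dusp6*, the gene of the ERK phosphatase, lies on chromosome 10 from 99263231 to 99267489 (ENSMUSG00000019960.8, plus strand). It had 41.8 CPM (38.1 to 45.7; 468 UMIs) in wild-type and 39.2 CPM (35.3 to 43.5; 362 UMIs) in knockout ES cells, a ratio of 0.94 (0.82 to 1.08). In fibroblasts it had 48.7 CPM (30.1 to 74.4; 21 UMIs) for the wild-type library and 17.4 CPM (2.10 to 62.8; 2 UMIs) for the knockout one, with ratios to ES cells of 1.17 (0.714 to 1.80) and 0.443 (0.0534 to 1.61). For neither *Spry4* nor *Dusp6* did the summed levels of the libraries differ beyond counting error over all ES cells. The expected shares at 500 UMIs per cell were 1.67% and 1.55% for *Spry4* and 2.12% and 1.45% for *Dusp6*. The *Dusp6* ratio was lower in the shallower cells, as given further on.

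*Etv4*, one of the ETS transcription factors downstream of ERK, lies on chromosome 11 from 101769742 to 101785371 (ENSMUSG00000017724.14, minus strand). It had 30.4 CPM (27.3 to 33.8; 341 UMIs) in wild-type and 57.0 CPM (52.2 to 62.1; 526 UMIs) in knockout ES cells. The ratio of 1.87 (1.63 to 2.15) was the highest of the 8 genes and lay above that of 96.5% of all genes with at least 50 UMIs. A UMI was present in 15.9% of the wild-type ES cells and 22.9% of the knockout ones, with expected shares of 1.34% and 2.21% at 500 UMIs per cell. In the wild-type library 9 cells had 3 or more *Etv4* UMIs, and in the knockout library 29 did, numbers not taken at equal depth. Fibroblasts had 2 UMIs of it in the wild-type library, 4.63 CPM (0.561 to 16.7), and 4 in the knockout library, 34.7 CPM (9.47 to 89.0).

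*Etv5*, its close relative on chromosome 16 from 22381309 to 22439719 (ENSMUSG00000013089.15, minus strand), had the most UMIs of the 8 genes and did not share the direction of *Etv4*. Its level was 148 CPM (141 to 156; 1664 UMIs) in wild-type and 134 CPM (127 to 142; 1235 UMIs) in knockout ES cells, a ratio of 0.90 (0.84 to 0.97). A UMI was present in 52.9% of the wild-type ES cells and 40.5% of the knockout ones. Fibroblasts had 13.9 CPM (5.10 to 30.3; 6 UMIs) and 8.69 CPM (0.220 to 48.4; 1 UMI), which were 0.0936 (0.0343 to 0.204) and 0.0649 (0.00164 to 0.362) of the ES cell level. *Etv5* and *Fgf4* were the 2 genes of the 8 at most at 1/2 of the ES cell level in the fibroblasts of both libraries, a call that 22.0% of the 6291 genes received. For comparison *Nanog*, a pluripotency gene, had 20.9 and 60.8 CPM in these fibroblasts and 269 and 259 CPM in the ES cells. *Lin28a* had 6.95 and 17.4 CPM in the fibroblasts, and *Fgf4* had no UMI in them. The source of the few *Etv5* UMIs in fibroblasts was not tested.

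**Figure D1:**
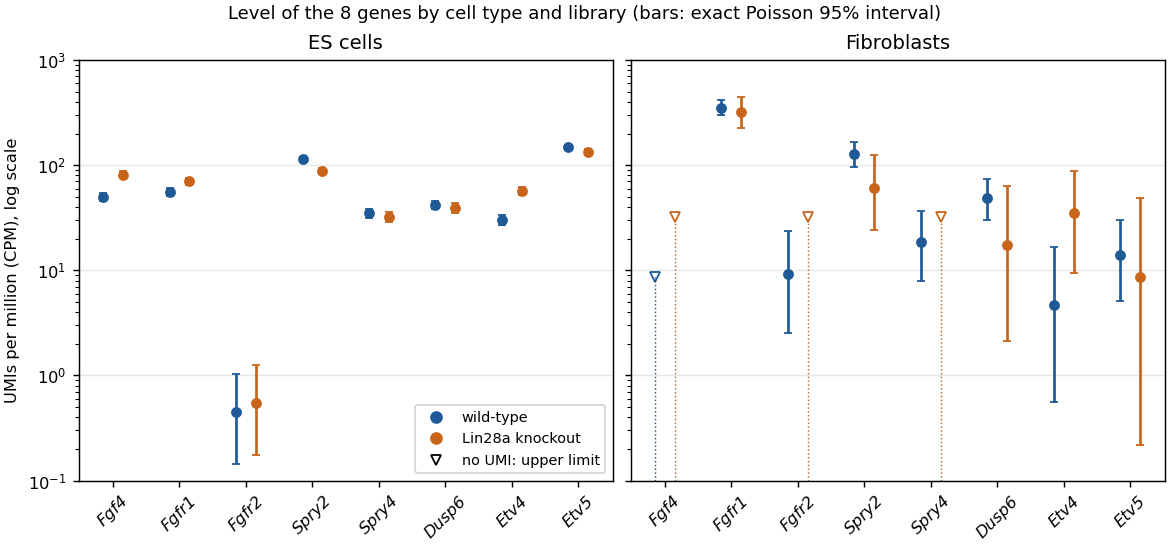
Level of each gene in CPM on a log axis, in ES cells (left) and fibroblasts (right), with wild-type in blue and *Lin28a* knockout in orange. Bars are exact Poisson 95% intervals and open triangles are upper limits where no UMI was found. *Fgf4* and *Etv4* are higher in knockout than in wild-type ES cells, *Fgfr1* stands at 352 and 321 CPM in the fibroblasts of both libraries, and *Fgf4* has no UMI there.

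Ordered by CPM, the wild-type ES cells had *Etv5* first, then *Spry2*, *Fgfr1*, *Fgf4*, *Dusp6*, *Spry4*, *Etv4* and *Fgfr2*. The intervals of *Fgfr1* and *Fgf4* overlapped, as did those of *Dusp6* and *Spry4* and those of *Spry4* and *Etv4*. In knockout ES cells *Fgf4* stood next to *Spry2*, with an interval that overlapped those of *Spry2* and *Fgfr1*, and *Etv4* came next after *Fgfr1*, above *Dusp6* and *Spry4*. These are counts of 3′ tags, which are not divided by gene length, and the capture of a tag may differ between genes.

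Over all ES cells 2 of the 7 genes with at least 50 UMIs, *Fgf4* and *Etv4*, were at least 1.5-fold higher in the knockout library, where 11.5% of the 15104 genes were. None of the 7 was at most at 1/1.5 of the wild-type level, where 8.18% of all genes were. *Fgfr2* had too few UMIs to be counted. The median ratio of the 7 genes was 0.940 and that of all genes was 1.05, and 3 of the 7 had ratios above 1 and 4 below. Over the 15104 genes 8682 had ratios above 1 and 6422 below. With no replicate these are counts of sizes and not of tested changes.

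The other genes of the pathway were read from 6 lists of 80 genes, of which 79 were matched and 55 had at least 50 UMIs. Of these 55, 2 were at least 1.5-fold higher and 3 at most at 1/1.5 in the knockout library, which is 3.64% and 5.45% of them against the 11.5% and 8.18% of all genes, and their median ratio was 0.941. The higher count fell to 1 under median of ratios scaling, and the lower count fell to 1 with cells weighted to equal share of ribosomal protein (RP) UMIs, an alternative described further on, so both counts depend on such settings. The lists taken singly hold too few genes for their counts to be read against those shares. Of 21 other genes of the FGF family 20 had at most 35 UMIs over both libraries. Among them were *Fgf5*, a marker of primed cells, with 0.535 and 1.08 CPM, and *Fgf8*, with 0.803 and 0.217 CPM. *Fgf4* was thus the gene of the FGF family with the most UMIs, and the next, *Fgf11*, had 2.41 and 3.47 CPM. Not every gene of this family codes for a secreted ligand. The receptor genes *Fgfr3*, with 1.61 and 2.49 CPM, and *Fgfr4*, with 0.535 and 1.30 CPM, were also near 0, although *Fgfr3* lay above *Fgfr2* in knockout ES cells beyond counting error. All 6 of the 9 receptors and co-receptors with enough UMIs were within 1.5-fold. Among adaptors and exchange factors 1 of 9 was past that fold, *Sos2*, an exchange factor that loads RAS with GTP, with 17.5 CPM in wild-type and 33.8 CPM in knockout ES cells and a ratio of 1.93 (1.61 to 2.32).

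All 13 RAS, RAF, MEK and ERK genes were within 1.5-fold, as were 12136 of the 15104 genes. A list of 13 is too small to be read against that share. The median ratio of the 13 was 1.10. *Mapk3*, which codes for the kinase ERK1, had 44.3 and 54.3 CPM, *Map2k1* 91.9 and 81.5 CPM and *Map2k2* 120.01 and 134.8 CPM. The ratios of the 13 ran from 0.713 to 1.38, and the highest was that of *Hras* (1.24 to 1.55). Intervals excluded 1 in both directions, with *Map2k1* at 0.887 (0.806 to 0.975). Of 17 other negative regulators 1 was past 1.5-fold, *Dusp4*, an ERK phosphatase of the nucleus, with 42 and 12 UMIs and a ratio of 0.347 (0.166 to 0.672). Of the 17, 5 had ratios above 1 and 12 below, where 8682 of the 15104 genes were above 1 and 6422 below. A list of 17 is too small to be read against these numbers. The Sprouty relatives *Spred1* and *Spred2* had ratios of 0.740 (0.629 to 0.870) and 0.702 (0.621 to 0.791), near the 0.77 of *Spry2*. The Sprouty gene *Spry1* was at 0.863 (0.704 to 1.06), and *Dusp1* at 1.25 (1.16 to 1.35) and *Dusp9* at 1.32 (1.16 to 1.49) went the other way. *Spred1* and *Spred2* were also lower in ES cells with the most RP UMIs, as *Spry2* was, and the part of this was not tested.

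Of 9 other ERK targets with enough UMIs 1 was higher and 2 were lower past 1.5-fold. *Fos*, an immediate early gene, had 128 CPM in wild-type and 80.9 CPM in knockout ES cells, a ratio of 0.633 (0.578 to 0.692). *Etv1*, the other member of the *Etv4* and *Etv5* family, had 20.4 and 13.5 CPM, a ratio of 0.663 (0.529 to 0.828). Over all ES cells *Etv4* alone of that family was thus higher in the knockout library. *Fos* and *Etv1* were also lower in ES cells of 15% or more RP UMIs than in those of 5 to 10%. The ratios were 0.574 and 0.281 for *Fos* and 0.171 and 0.313 for *Etv1* in the wild-type and knockout libraries. The part of this was not tested. *Ier3* had 8.74 and 13.2 CPM, a ratio of 1.51 (1.15 to 1.99), just past the fold with an interval that reaches below it. Fibroblasts held far more *Ier3*, with 440 and 591 CPM. That was 50.3 times (39.2 to 64.9) and 44.7 times (32.7 to 60.6) the ES cell level. How far its library ratio depends on the collagen limit was not tested. *Egr1* and *Ccnd1* lay just inside the fold, with ratios of 0.707 (0.661 to 0.757) and 0.673 (0.625 to 0.724).

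**Figure D2:**
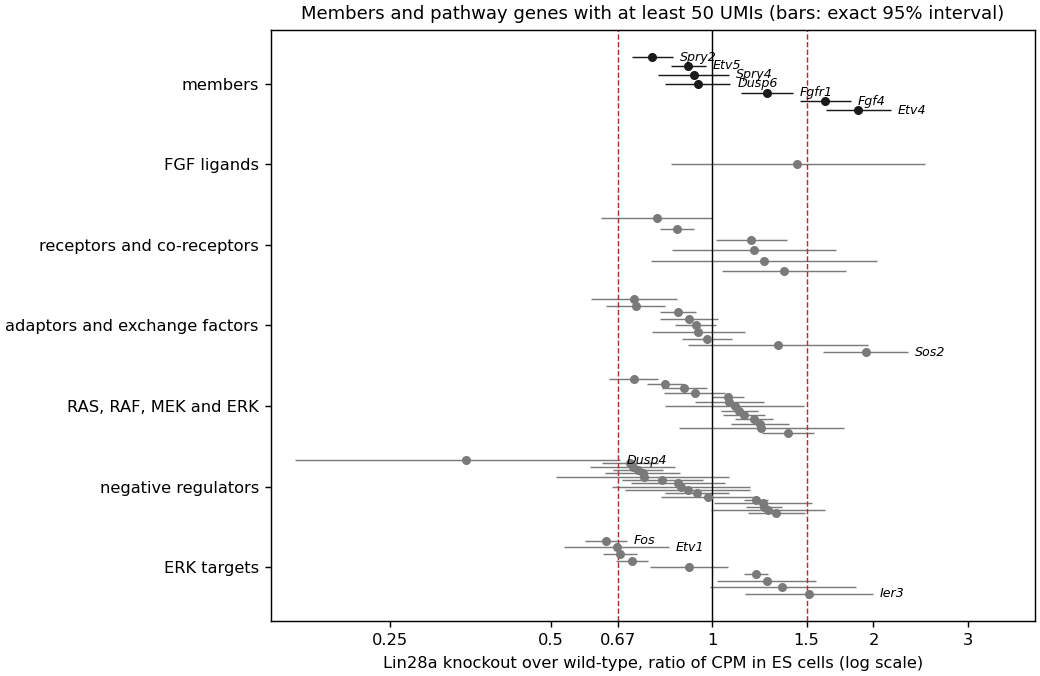
Ratio of the *Lin28a* knockout over the wild-type level in ES cells, on a log axis, for the 7 members and the 55 pathway genes with at least 50 UMIs. Bars are exact 95% intervals, the solid line marks 1 and the dashed lines mark 1.5-fold. *Fgf4*, *Etv4*, *Sos2* and *Ier3* lie past the upper line and *Dusp4*, *Fos* and *Etv1* past the lower one.

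Within each library *Spry2*, *Dusp6* and *Etv5* differed in level between ES cells of different share of ribosomal protein (RP) UMIs, summed over 87 RP genes. ES cells were grouped as under 5%, 5 to 10%, 10 to 15% and 15% or more. *Spry2* had 152 CPM (142 to 162) in the wild-type cells of 5 to 10%, 96.4 CPM (86.4 to 107) in those of 10 to 15% and 20.3 CPM (14.1 to 28.2) in those of 15% or more. In the knockout library it had 129.6 CPM (118 to 142), 95.2 CPM (85.2 to 106) and 15.6 CPM (10.7 to 21.9). The highest class was thus at 0.134 (0.0925 to 0.187) and 0.120 (0.0816 to 0.171) of the 5 to 10% class. *Dusp6* followed the same order in both libraries, with 53.8 CPM in wild-type and 61.8 CPM in knockout cells of 5 to 10% and 9.27 and 8.97 CPM in cells of 15% or more. Its ratios were 0.172 (0.0974 to 0.284) and 0.145 (0.0856 to 0.232). *Etv5* went from 178 to 76.5 CPM for the wild-type library and from 181 to 59.5 CPM for the knockout one, with ratios of 0.429 (0.355 to 0.515) and 0.328 (0.269 to 0.398).

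*Etv4* ran the other way. It had 25.7 CPM (21.8 to 30.1) and 44.0 CPM (37.2 to 51.8) in cells of 5 to 10%, and 56.2 CPM (45.6 to 68.6) and 89.7 CPM (77.4 to 103) in cells of 15% or more, ratios of 2.19 (1.68 to 2.84) and 2.04 (1.63 to 2.54). The levels of the remaining genes were closer between the classes. *Fgf4* had ratios of 1.16 (0.909 to 1.46) and 0.851 (0.692 to 1.04), *Fgfr1* 0.797 (0.619 to 1.02) and 0.666 (0.532 to 0.830), and *Spry4* 0.938 (0.685 to 1.27) and 1.25 (0.913 to 1.69). The feedback inhibitor *Spry4* thus did not follow *Spry2* and *Dusp6* along this axis.

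Of the 6 members with at least 500 UMIs over these classes, 3 (*Spry2*, *Dusp6* and *Etv5*) were at most at 1/2 in the highest class of both libraries, as were 30.1% of the 4539 genes so measured. One, *Etv4*, was at least 2-fold higher in both, as were 8.61% of all. The 3 genes therefore stood among many that were lower in these cells, whose median ratio over all genes was 0.846 and 0.783. Among all genes the ratio of *Spry2* lay above that of 4.10% and 5.18%, and that of *Dusp6* above 6.65% and 7.78%. Of 26 other pathway genes 12 were at most at 1/2 in both libraries and 1 was at least 2-fold higher. *Map2k1* was at 0.261 and 0.228 and *Egr1* at 0.323 and 0.179. *Pebp1*, which codes for an inhibitor of RAF, was the one that was higher, at 2.23 and 2.28.

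The cells of 15% or more RP were deeper than those of 5 to 10% in the wild-type library, with medians of 7264 and 6344 UMIs, and shallower in the knockout library, with 5852 and 7632 UMIs. The mitochondrial share had medians of 0.177% and 0.265% there and of 1.70% and 2.51% in the lower class. All 8 ES markers were found in both classes, and their sum was 4806 and 4813 CPM in the highest class against 3718 and 3903 CPM. Single markers went both ways, with *Nanog* at 0.215 and 0.173 of the level in the 5 to 10% class, *Zfp42* at 0.440 and 0.432, *Pou5f1* at 1.45 and 1.29 and *Dppa5a* at 2.83 and 2.59. The naive list of 10 genes summed to 2343 and 2126 CPM against 3539 and 3665, the primed list to 124 and 88.7 CPM against 207 and 169, the primitive endoderm list to 40.6 and 46.2 CPM against 40.1 and 42.8, and the immediate early list to 668 and 574 CPM against 959 and 1012. The fibroblast list summed to 570.2 and 590.3 CPM against 713 and 760.4. The part of mitochondrial share, of cell state and of RNA composition in the levels of *Spry2*, *Dusp6* and *Etv5* was not tested.

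Cells under 5% RP were few and shallow, 83 for the wild-type library and 222 for the knockout one with medians of 789 and 1214.5 UMIs. *Spry2* had 66.1 CPM (21.5 to 154; 5 UMIs) in those of the wild-type library and 54.7 CPM (31.8 to 87.5; 17 UMIs) in those of the knockout library, and *Etv5* 92.5 CPM (37.2 to 191) and 80.4 CPM (52.0 to 119). In the knockout library both intervals lay below those of the 5 to 10% class. *Etv4* had 1 and 3 UMIs in these cells.

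**Figure D3:**
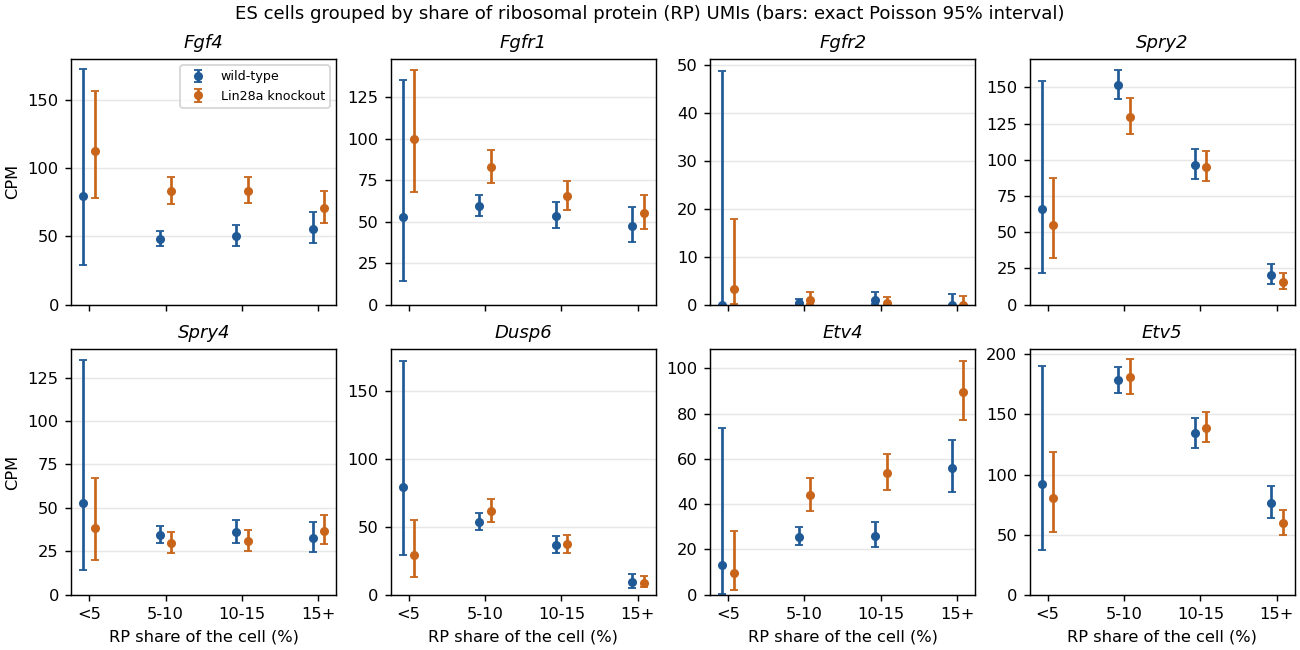
Level of each gene in CPM in ES cells grouped by the RP share of the cell, with wild-type in blue and *Lin28a* knockout in orange and exact Poisson 95% intervals as bars. *Spry2*, *Dusp6* and *Etv5* are lowest, from 5% upwards, in the cells of 15% or more, while *Etv4* is highest there. The *Fgf4* points of the knockout library stand above those of the wild-type library in each class, with intervals that overlap in the outer classes.

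The libraries differed in how their ES cells fell into these classes. Cells of 5 to 10% made up 50% of wild-type and 27.3% of knockout ES cells. Cells of 15% or more made up 12.4% and 21.8%, and cells under 5% made up 4.59% and 13.9%. The difference in *Spry2* was smaller in the middle classes than over all ES cells and about as large in the highest, the knockout over wild-type ratio being 0.855 (0.760 to 0.960) at 5 to 10%, 0.987 (0.845 to 1.15) at 10 to 15% and 0.768 (0.462 to 1.27) at 15% or more. With the classes weighted to their shares of the wild-type UMIs the *Spry2* ratio was 0.887. *Etv5* had ratios of 1.02 (0.918 to 1.12), 1.03 (0.908 to 1.18) and 0.777 (0.604 to 1.0), and 1.0 when weighted, so the value of 0.90 over all cells was not seen in the first 2 of these classes.

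The ratios of *Fgf4* and *Etv4* were above 1 in each class from 5% upwards, while under 5% that of *Etv4* was 0.730 on 4 UMIs. That of *Fgf4* was 1.73 (1.46 to 2.05), 1.66 (1.37 to 2.02) and 1.27 (0.978 to 1.66) from the 5 to 10% class upwards and 1.63 when weighted. That of *Etv4* was 1.71 (1.36 to 2.16), 2.06 (1.60 to 2.68) and 1.59 (1.24 to 2.06) and 1.77 when weighted. *Fgfr1* had 1.39 (1.18 to 1.63), 1.22 (1.0 to 1.5) and 1.16 (0.869 to 1.56), and 1.31 when weighted. The comparison of libraries within RP classes, and that of the highest RP class with the 5 to 10% class, were chosen after the values were seen.

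The ratios of the same genes also differed between classes of depth. Within these classes the libraries differed in RP share too. Its median in wild-type and knockout cells was 9.75% and 12.1% at 2000 to 5000 UMIs and 9.81% and 11.9% at 5000 to 10000. At 10000 or more UMIs it was 9.88% and 10.1%. The part of depth and of RP share was not tested. For *Spry2* the ratio was 0.591 (0.438 to 0.790) in cells of 2000 to 5000 UMIs, 0.716 (0.626 to 0.818) in those of 5000 to 10000 and 0.922 (0.785 to 1.08) in those of 10000 or more. For *Etv5* it was 0.806 (0.640 to 1.01), 0.768 (0.686 to 0.860) and 1.12 (0.979 to 1.29), so the lower level over all cells was not seen in the deepest cells. *Dusp6*, with a ratio of 0.94 over all ES cells, was at 0.390 (0.137 to 1.11) in cells of 500 to 2000 UMIs, 0.618 (0.388 to 0.960) in those of 2000 to 5000, 0.824 (0.658 to 1.03) in those of 5000 to 10000 and 1.07 (0.836 to 1.36) in the deepest. *Fgf4*, with 1.62 (1.17 to 2.25), 1.53 (1.30 to 1.79) and 1.60 (1.30 to 2.00), and *Etv4*, with 2.07 (1.39 to 3.10), 2.05 (1.69 to 2.48) and 1.65 (1.27 to 2.18), were higher in the knockout library in each of these depth classes.

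**Figure D4:**
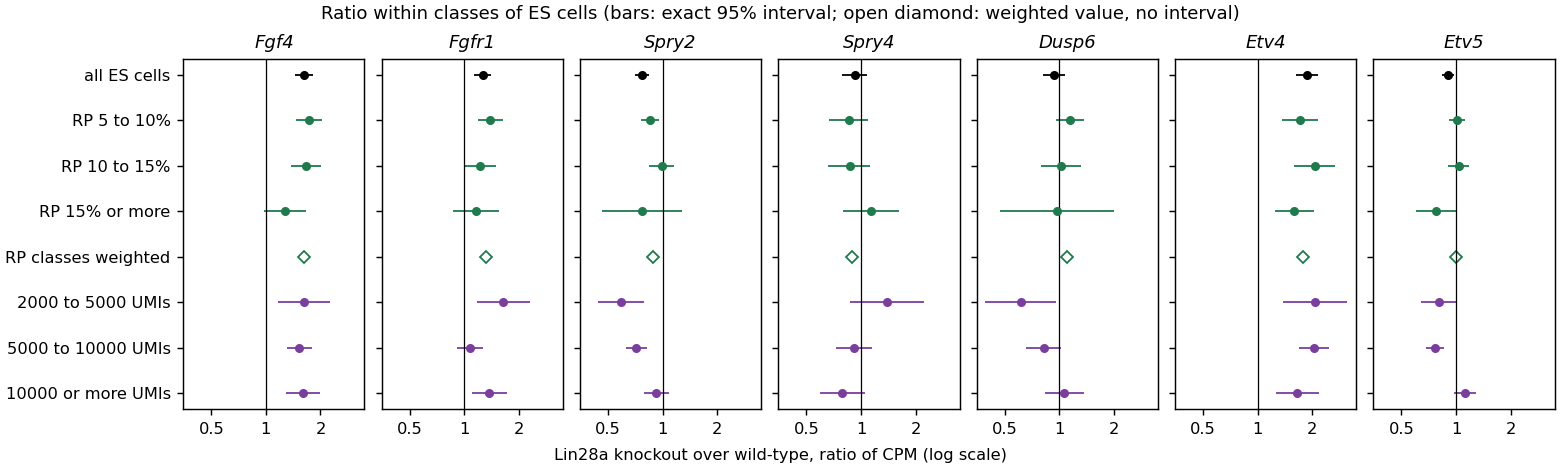
Ratio of the *Lin28a* knockout over the wild-type level for 7 genes, on a log axis, in all ES cells (black), within classes of ribosomal protein (RP) share from 5% upwards (green) and within classes of depth from 2000 UMIs upwards (purple). Bars are exact 95% intervals and the open diamond is the value with RP classes weighted to the wild-type UMIs, which has no interval. The points of *Fgf4* and *Etv4* lie to the right of 1 in every class drawn, while *Etv5* lies at 1.0 when weighted.

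Cells were also ordered by marker lists, among ES cells with at least 3000 UMIs, 1547 for the wild-type library and 996 for the knockout one. The 10% of cells with the highest summed share of 10 naive genes were set against the rest. In these cells *Spry2* had 184 CPM against 107 CPM in the wild-type library, the ratio being 1.71 (1.45 to 2.00), and 161 CPM against 83.3 CPM in the knockout library, the ratio being 1.93 (1.60 to 2.32). *Dusp6* had ratios of 1.53 (1.15 to 2.00) and 1.56 (1.14 to 2.09). *Etv4* was at 0.687 (0.424 to 1.06) and 0.569 (0.385 to 0.814), again opposite to *Spry2*. In the knockout library *Etv5* was at 1.29 (1.08 to 1.53) and *Fgfr1* at 1.39 (1.09 to 1.76), and in the wild-type library at 0.974 (0.816 to 1.15) and 1.06 (0.796 to 1.39). The median RP share was 8.84% in the naive-high cells and 9.94% in the rest of the wild-type library, and 9.41% and 11.6% in the knockout library, so the same axis moved with this split and its part was not tested. The split is a range and not a cell type, since 494 and 319 cells lay between 0.8 and 1.25 times the limit.

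The 10% of cells with the highest share of 12 immediate early genes gave *Spry2* ratios of 1.24 (1.03 to 1.48) and 1.47 (1.18 to 1.81) and *Etv4* ratios of 0.473 (0.262 to 0.792) and 0.672 (0.457 to 0.956). For *Fgfr1* the ratio was 1.59 (1.24 to 2.01) in the knockout and 1.03 (0.770 to 1.36) in the wild-type library, and the difference between these ratios was not tested. Fibroblasts held more *Fgfr1* and more of the immediate early gene *Fos* than ES cells, and the part of fibroblast RNA was not tested. By the primed list *Etv5* had ratios of 1.15 (0.975 to 1.36) and 1.34 (1.12 to 1.60) and *Dusp6* of 1.02 (0.717 to 1.41) and 1.43 (1.02 to 1.97). In the knockout library the median RP share was 9.96% in the cells highest for the primed list and 11.3% in the rest. For the immediate early list it was 10.01% and 11.4%. In the wild-type library the values were 9.15% and 9.87% for the primed list and 9.69% and 9.83% for the immediate early list. The part of RP share in the ratios of these splits was not tested. By the primitive endoderm list, whose median was 1 UMI in the highest cells, the ratios of *Fgf4* were 1.02 (0.738 to 1.37) and 0.992 (0.735 to 1.31) and those of *Spry4* 1.05 (0.715 to 1.5) and 1.15 (0.721 to 1.75). That of *Etv4* was 0.968 (0.633 to 1.43) for wild-type and 0.654 (0.427 to 0.964) for knockout cells, the one of the 7 genes whose interval excluded 1 in a library. Among intervals of 7 genes in 2 libraries, 1 that excludes 1 is no finding. The highest cells of the knockout library were also shallower, with a median of 5207.5 against 7968.5 UMIs. *Fgfr2* had too few UMIs in any of these classes to be compared.

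Cells with a *Lin28a* UMI were set against cells without one in the same library, a grouping added after the values were seen. *Spry2* was at 125 CPM against 102 CPM in the wild-type library, the ratio being 1.23 (1.10 to 1.38), and at 113 CPM against 83.4 CPM in the knockout library, the ratio being 1.35 (1.16 to 1.57). *Etv4* had ratios of 0.959 (0.769 to 1.2) and 1.04 (0.851 to 1.26) and *Fgf4* of 0.894 (0.753 to 1.06) and 0.962 (0.807 to 1.14). *Fgfr1* had ratios of 1.19 (1.01 to 1.40) and 1.20 (0.998 to 1.43), *Dusp6* of 1.14 (0.945 to 1.38) and 1.39 (1.10 to 1.75), *Etv5* of 1.09 (0.987 to 1.20) and 1.29 (1.14 to 1.46) and *Spry4* of 1.08 (0.880 to 1.33) and 1.10 (0.834 to 1.44). Cells with a *Lin28a* UMI were deeper, with medians of 7156.5 against 6129 UMIs and of 10055 against 7236.5 UMIs, and had a lower median RP share, 9.57% against 10.1% and 10.1% against 11.8%, and the part of depth and RP share was not tested.

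To compare the spread between cells at equal depth, the same cells were thinned to 3000 UMIs each. The variance over the mean was 1.13 for *Spry2* in wild-type and 1.24 in knockout cells, against a median of 1.04 and 1.05 over all genes found in at least 5% of cells. *Fgf4* was at 1.02 and 1.03, close to the value of 1 that counting alone gives, and *Spry4* at 1.07 and 1.03. *Dusp6* was at 1.13 and 1.07, *Etv4* at 1.09 and 1.16, *Etv5* at 1.08 and 1.13 and *Fgfr1* at 1.12 and 1.04. Most positive cells carried a single molecule of a given gene, so cells without a UMI cannot be read as cells without the RNA.

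At the median, pairs of the 7 genes were found in the same cell about as often as their separate shares give. Over 21 pairs the number of cells with both genes was between 0.788 and 1.67 times that number in the wild-type library, with a median of 1.03, and between 0.511 and 1.57 times in the knockout library, with a median of 0.994. *Spry2* and *Dusp6* shared 54 cells where 46.4 were given by their shares in the wild-type library, and 29 where 18.5 were given in the knockout library. *Spry2* and *Etv5* shared 155 against 148 cells and 83 against 61.0. *Dusp6* and *Etv4* shared 14 against 15.9 cells and 8 against 15.6. All correlations of the log values between these pairs lay between -0.068 and 0.114, which in counts this sparse is no finding.

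Among 6786 genes the ones most like each member over these 1547 and 996 thinned cells, by the smaller of the 2 correlations, were also only weakly like it. For *Spry2* they were *Ptma* (0.163 in wild-type and 0.236 in knockout cells), *Rtn4* and *Set*, and for *Dusp6* *Zcchc10* (0.119 and 0.112), *Ywhaz* and *Sinhcaf*. For *Etv5* they were *mt-Atp6* (0.125 and 0.229), *Tpt1* and *Hnrnpk*, and for *Etv4* *Gm8730* (0.123 and 0.190), *Rack1* and *Rpsa-ps2*. For *Fgf4* they were *Cdk17* (0.0636 and 0.105), *Gm20379* and *Gm4462*, for *Fgfr1* *Top2a* (0.105 and 0.0853), *Ddx23* and *Gm48082*, and for *Spry4* *Pigt* (0.0886 and 0.0691), *Dmwd* and *Plxnb2*. The points are cells of 1 library each, which share its depth and RNA composition, and no test was made.

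The same lists were read in fibroblasts. Of 34 other pathway genes with at least 500 UMIs, 7 were at least 2-fold higher in the fibroblasts of both libraries and 4 at most at 1/2, where 6.87% and 22.0% of all genes were. *Ccnd1*, a cyclin gene induced by ERK, had 1939 and 686 CPM in fibroblasts against 181 and 122 CPM in ES cells, and *Dusp1* 987 and 704 CPM against 119 and 148 CPM. *Gpc4* and *Sdc4*, which code for co-receptors of FGFs on the cell surface, were higher in fibroblasts as *Fgfr1* was, with ratios of 4.04 (2.96 to 5.40) and 3.38 (1.83 to 5.75) and of 2.61 (2.22 to 3.05) and 2.59 (1.84 to 3.54). *Gab1*, an adaptor, was at 0.0655 (0.0178 to 0.168) and 0.356 (0.115 to 0.834). *Dusp9*, another ERK phosphatase gene, was at 0.362 (0.145 to 0.752) and 0.147 (0.00372 to 0.824), beside *Dusp6*, which did not differ between the cell types beyond counting error in either library. The fibroblasts of the knockout library were 23 cells with 115122 UMIs in all, a floor of 26.1 CPM.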

How the data were processed

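The inDrop libraries, 1 wild-type and 1 *Lin28a* knockout, were taken from the labels. Per the methods the authors ran an inDrop pipeline described elsewhere, and the deposited values are UMI counts of each gene in each barcode, not normalized, 12079546 and 10027710 UMIs over 4329 and 6060 barcodes. The submitters' processing notes name mm10 and Seurat 2.3.4; the aligner and annotation are not given in the sources used here. Ambiguously assigned UMIs numbered 3 and 2 over the 8 genes. Identifiers were named without version through GENCODE M21 (GRCm38), where 54079 of 54146 matched.

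UMIs were summed over cells (Python 3.11.15, SciPy 1.17.1) with exact Poisson intervals, exact conditional intervals of ratios and exact binomial intervals of shares, all covering counting error only; scripts were tested on simulated data. With 1 library per group no test was made. Genes needed 50 UMIs over both libraries, and 500 for fibroblasts or RP classes. A gene was named if it was one of the 8, a pathway gene past 1.5-fold, an abundant RAS, RAF, MEK or ERK gene, a receptor or ligand near 0, or 1 of the 3 most like a member. Genes of the spread and likeness comparisons were found in at least 5% of thinned cells in each library. The members and lists were chosen with earlier results of these data known. *Spry1*, *Spred1*, *Spred2*, *Egr1*, *Ccnd1*, *Pebp1*, *Dusp1*, *Dusp9*, *Gpc4*, *Sdc4* and *Gab1* and the ES markers compared between RP classes were named after their values were seen. Doublets were kept; leaving out those marked by Scrublet (scanpy 1.11.5) was an alternative, as were other limits on UMIs, mitochondrial share and collagen, another scaling, and depth classes. Promoters for *Fgfr1*, *Etv4* and *Spry4* and amino acid sequences were not used here. Some genes of the kinase list are not reported here.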

Additional observations from a re-analysis of the deposited data

Results flagged for a closer look

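Barcodes under 500 UMIs were in no comparison. In the 2472 such barcodes of the wild-type library the 8 genes summed to 585 CPM (516 to 661; 257 UMIs), against 476 CPM in ES cells and a floor of 6.83 CPM, and in the 4423 of the knockout library to 534.8 CPM (481 to 593; 360 UMIs), against 502.5 CPM and a floor of 4.46 CPM. They were set apart because signal was present in data the report left out. *Dusp6* was at 2.13 times (1.49 to 2.95) and 1.63 times (1.16 to 2.24) its ES cell level there and *Spry2* at 1.86 times (1.49 to 2.3) and 1.49 times (1.18 to 1.86), while *Etv4* was at 0.449 (0.164 to 0.988) and 0.495 (0.296 to 0.781). *Fgfr1* was at 1.84 times (1.33 to 2.49) its ES cell level in the wild-type and 1.12 times (0.828 to 1.48) in the knockout library. No limit on collagen or mitochondrial share was set for these barcodes. RNA of fibroblasts, which held more *Fgfr1*, was thus not set apart there as it was for ES cells.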

How the results depend on the processing

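Of 186 values under alternatives, 144 stayed within the counting interval of the reported value or within 1.5 times a count, 37 moved outside it and 5 reversed; the cause was not tested unless fewer cells or genes show it. For *Fgf4* the ratio of knockout over wild-type moved to 1.42 under 5% RP and 1.27 at 15% or more. For *Fgfr1* it was 1.10 with fibroblasts not kept apart, 1.09, 1.64 and 1.07 in cells of 500 to 2000, 2000 to 5000 and 5000 to 10000 UMIs, and 1.89 under 5% RP. For *Spry2* it was 0.473, 0.591 and 0.922 in cells of 500 to 2000, 2000 to 5000 and 10000 or more UMIs, 0.855 and 0.987 at 5 to 10% and 10 to 15% RP, and 0.887 with RP classes weighted. For *Spry4* it was 0.682, 1.39 and 0.787 in cells of 500 to 2000, 2000 to 5000 and 10000 or more UMIs, 0.730 under 5% RP and 1.13 at 15% or more. For *Dusp6* it was 0.390 and 0.618 in the lower depth classes, 0.365 under 5% RP, 1.15 at 5 to 10% and 1.10 weighted. For *Etv4* it was 1.56 in cells of 500 to 2000 UMIs and 1.59 at 15% or more RP, and it reversed to 0.730 under 5% RP, where 4 UMIs in all gave an interval from 0.0586 to 38.3. *Etv5* was at 0.686, 0.806 and 0.768 in the 3 lower depth classes and at 0.777 at 15% or more RP. Its point value reversed to 1.12 in cells of 10000 or more UMIs, 1.02 and 1.03 at 5 to 10% and 10 to 15% RP and 1.0 weighted. The intervals of these reversed values within classes include 1, and the weighted value has none, so no opposite difference was shown. The pathway counts past 1.5-fold went from 2 to 1 higher under median of ratios scaling and from 3 to 1 lower with RP classes weighted. With a fibroblast limit of 1% *Etv4* was at 0 of the ES cell level in the wild-type and *Dusp6* at 0 in the knockout library. At 2000 in place of 500 UMIs per cell the ratio of shares with a UMI went from 3.91 to 0.226 for *Fgfr2*, which rests on 10 UMIs, from 0.607 to 0.725 for *Spry2*, from 0.685 to 0.868 for *Dusp6* and from 0.801 to 0.886 for *Etv5*. Cells under 2000 UMIs drop out at that depth, which left 1600 wild-type and 1097 knockout ES cells, so depth and the set of cells changed together. A minimum of 1000 or 2000 UMIs, a mitochondrial limit of 10%, removal of the 25 and 15 cells marked as doublets, cells under 5% RP left out and mitochondrial genes left out of the total moved no ratio of the 8 genes outside its interval. Median of ratios scaling, with a median ratio of 1.05, did so for none either. No paired analysis was possible because the result comes from no test and each group is 1 library.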
